A study of Mus musculus with 3 samples.

Results

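The regions described here are the stretches of the mouse genome that a 5-hydroxymethylcytosine (5hmC) antibody pulled down although their sequence holds almost no CpG. Peaks of the 3 replicates on chromosomes 1 to 19 were merged where they overlapped by at least 1 bp, and regions with 0 or 1 CpG in their GRCm39 sequence were kept. This gave 544 of 13285 merged regions (4.09%), of which 160 held no CpG and 384 held 1. They are called CpG-poor regions below, and the 12741 regions with at least 2 CpG are called other regions. Cerebellum DNA of a female C57Bl6Cr mouse, 8 weeks old, was sonicated to fragments of 362 bp on average. It was immunoprecipitated in 3 reactions of 1 µg, replicate 1 with a whole serum α-5hmC antibody and replicates 2 and 3 with an IgG-purified one. The library names give 1 animal for all 3, so that the spread between replicates is that of reaction and sequencing, and replicate 1 differs from the others in its antibody too. On chromosomes 1 to 19 the lists of replicates 1, 2 and 3 held 490, 8506 and 5146 peaks, and their base-call counts held 68673, 101734 and 73834 calls.

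In mammalian DNA, 5hmC is made by TET enzymes from 5-methylcytosine (5mC), and it is abundant in neurons, mostly in the CpG context, although adult neurons also carry 5mC outside CpG. Hydroxymethylated DNA immunoprecipitation (hMeDIP) enriches whole fragments, so that a CpG beside a peak can have been on the fragment that was pulled down. Antibodies against modified bases are also known to bind some DNA without the modification, short tandem repeats in particular, where a unit of a few bases follows itself head to tail. The rule therefore separates regions whose own sequence, apart from its surroundings, has little or no room for 5hmC in the CpG context.

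Sequences of CpG-poor regions are shown first, because the repeats can be read in them directly. They were taken from the forward strand of GRCm39 around the summit of the highest peak of the region, and capitals mark the best-scoring tandem repeat of the region. The first 3 are among the 6 with a peak in at least 2 replicates and the highest mean fold enrichment.
chr6:10186336-10186515: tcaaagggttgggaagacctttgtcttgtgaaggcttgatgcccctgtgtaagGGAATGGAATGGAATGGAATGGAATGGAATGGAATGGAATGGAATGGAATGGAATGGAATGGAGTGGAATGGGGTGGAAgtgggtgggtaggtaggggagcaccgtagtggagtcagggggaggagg
chr2:9997485-9997664: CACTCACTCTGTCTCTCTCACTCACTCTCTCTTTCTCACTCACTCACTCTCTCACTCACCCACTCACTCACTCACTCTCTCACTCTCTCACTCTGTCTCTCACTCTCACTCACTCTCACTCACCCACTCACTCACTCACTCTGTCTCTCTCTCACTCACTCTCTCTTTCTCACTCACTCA
chr10:83790365-83790544: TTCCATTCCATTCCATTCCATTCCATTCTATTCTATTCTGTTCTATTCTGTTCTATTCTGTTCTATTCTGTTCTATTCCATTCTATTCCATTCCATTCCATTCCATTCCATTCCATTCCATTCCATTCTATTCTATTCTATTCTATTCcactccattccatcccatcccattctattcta
In the sequence on chromosome 2, the repeat filled all 180 bases shown. The next 3 carry the longest perfect run of 3 of the 4 most common units, AC, AT and AAGG, and in each of them the summit lay outside this repeat, at a distance of 79 bp, 52 bp and 57 bp. In the AAGG region the summit lay in another stretch that also matches itself, in lower case here.
chr2:143034089-143034368: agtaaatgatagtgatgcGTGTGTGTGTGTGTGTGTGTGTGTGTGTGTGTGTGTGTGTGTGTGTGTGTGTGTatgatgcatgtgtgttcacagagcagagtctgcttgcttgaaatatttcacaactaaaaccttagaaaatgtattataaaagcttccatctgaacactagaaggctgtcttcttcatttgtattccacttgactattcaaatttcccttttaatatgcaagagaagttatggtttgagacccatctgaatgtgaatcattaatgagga
chr12:110101783-110102051: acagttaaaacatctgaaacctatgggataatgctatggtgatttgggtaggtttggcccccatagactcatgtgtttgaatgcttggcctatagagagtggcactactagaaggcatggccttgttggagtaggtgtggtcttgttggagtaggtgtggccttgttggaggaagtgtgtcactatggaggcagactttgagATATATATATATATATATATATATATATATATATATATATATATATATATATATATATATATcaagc
chr11:59216789-59217065: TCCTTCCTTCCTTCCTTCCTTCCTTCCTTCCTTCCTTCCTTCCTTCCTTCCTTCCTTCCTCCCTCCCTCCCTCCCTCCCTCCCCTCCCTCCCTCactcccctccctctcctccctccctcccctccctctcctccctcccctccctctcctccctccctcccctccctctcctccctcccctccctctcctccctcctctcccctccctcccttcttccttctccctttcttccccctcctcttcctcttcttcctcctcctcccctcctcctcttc
The last was chosen after its values were seen. It lies within an intron of Kmt2e and has no tandem repeat, and capitals mark its single CpG.
chr5:23661736-23661915: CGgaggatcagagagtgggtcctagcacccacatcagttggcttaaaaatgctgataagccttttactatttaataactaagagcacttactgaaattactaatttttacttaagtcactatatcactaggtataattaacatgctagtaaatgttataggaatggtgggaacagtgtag

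CpG-poor sequence was pulled down far less often than its share of the genome. CpG-poor regions held 16 peaks (3.27%) of replicate 1, 339 (3.99%) of replicate 2 and 201 (3.91%) of replicate 3. Genome tiles of the same widths had 0 or 1 CpG in 28.3%, 31.1% and 33.6% of cases. The share of peaks was thus 8.66, 7.80 and 8.60 times lower than the genome's, a mean difference of -27.3 ± 2.34 percentage points (SD, n = 3). The difference had the same sign in 3 of 3 replicates and far exceeded their spread. An exact two-sided permutation test that flips the signs of the 3 differences gave p = 0.25, the smallest p that 3 replicates allow, so that no comparison here can pass 0.05. Of 7540 regions within 10 bp of the median width of 304 bp, 6.55% had 0 or 1 CpG, against 42.3% of genome tiles of this width, and their medians were 5 and 2 CpG.

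**Figure D1:**
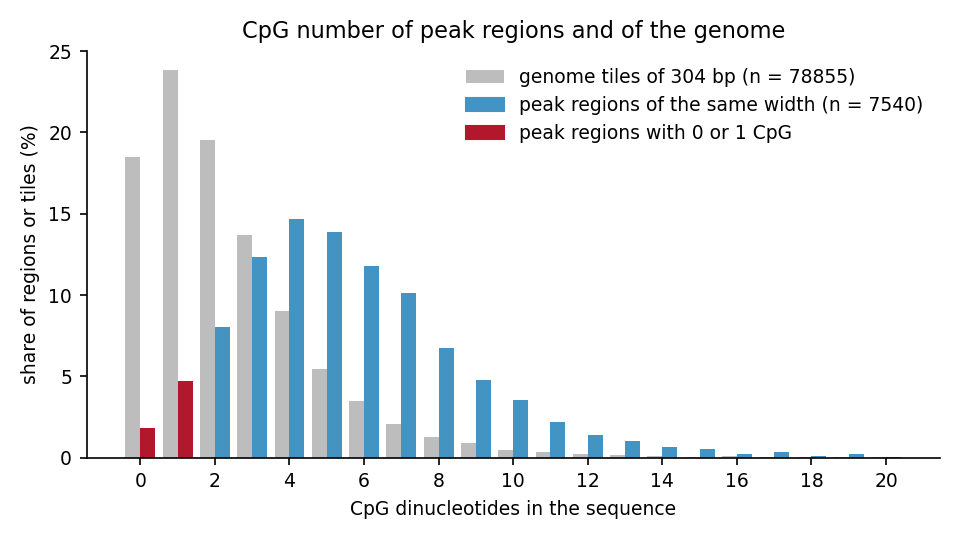
Share of sequences (%) with a given number of CpG, for 7540 peak regions of about 304 bp (blue; red where the number is 0 or 1) and for 78855 genome tiles of 304 bp (grey). Tiles with 0 or 1 CpG make up 42.3% and peak regions with 0 or 1 CpG 6.55%.

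Around the limit of the rule, the values changed gradually for most measures. The 384 regions with 1 CpG had a median GC content of 42.4%, a tandem repeat in 20.1% and a peak of more than 1 replicate in 1.04%. The 687 regions with 2 CpG had 44.7%, 13.4% and 1.02%. The 160 regions without CpG stood apart from those with 1, with a tandem repeat in 39.4%, a fold enrichment of at least 5 in 15.6% against 2.60%, and a peak of more than 1 replicate in 3.75%.

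Most CpG-poor regions rested on few reads. At the summit, the median fold enrichment over input was 5.42, 3.76 and 3.86 in replicates 1, 2 and 3, and in the other regions it was 4.72, 3.83 and 3.87. The mean difference of 0.204 ± 0.428 (SD, n = 3; exact two-sided permutation p = 1.0) did not exceed the spread between replicates, and its sign was positive in replicate 1 alone. With reads estimated from the fold enrichment, the summit held at most 3 reads in 308 of 339 peaks of replicate 2 (90.9%) and in 170 of 201 of replicate 3 (84.6%), against 80.7% and 82.1% of the other peaks. In replicate 1 this was 1 of 16 peaks, against 27.0% of the others. Of the peaks in CpG-poor regions, 62.5%, 90.6% and 84.1% had the smallest width of their list, which was 295 bp, 304 bp and 302 bp. Of the other peaks, 49.6%, 50.9% and 61.8% had this width. Fold enrichments reached 19.5 all the same, and 1 CpG-poor region had the second highest value of the 13285 regions.

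Tandem repeats were common in CpG-poor regions. A perfect run of at least 20 bases, with a unit of 1 to 6 bases, lay in the regions of 31.2%, 20.1% and 27.4% of CpG-poor peaks by replicate. In the other peaks the shares were 11.6%, 10.8% and 8.98%. The mean difference was 15.8 ± 5.68 percentage points (SD, n = 3; exact two-sided permutation p = 0.25), with the same sign in 3 of 3 replicates. Other regions of similar width gave a difference of 18.4 percentage points, while a minimum run of 12 bases gave 4.55, with the opposite sign in replicate 1 (-3.93). Repeats with longer or imperfect units were searched too, as stretches that match themselves at a shift of 1 to 150 bases. By either measure, 140 of 544 CpG-poor regions (25.7%) had a tandem repeat, against 11.9% of all regions and 12.5% of CpG-poor genome tiles. The repeat had a period of over 6 bases in 36 regions, and the self-matching stretch had a median length of 107 bases and reached 1148 bases.

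The tandem repeats held nearly all of the strong CpG-poor regions. A fold enrichment of at least 5, a limit chosen after the values were seen, was reached in at least 1 replicate by 35 CpG-poor regions (6.43%), close to the 5.66% of all regions. Of these 35, 32 had a tandem repeat, as did the 10 with the highest values. The share with a fold enrichment of at least 5 was 22.9% of the 140 regions with a repeat and 0.743% of the 404 without. In the other regions it was 9.85% with a repeat and 5.09% without. By replicate, a fold enrichment of at least 5 was found in 9 of 10, 8 of 81 and 22 of 60 CpG-poor peaks with a repeat. Among those without a repeat it was found in 1 of 6, 2 of 258 and 0 of 141. In other peaks the shares were 52.4%, 8.28% and 9.75% with a repeat, and 39.2%, 4.14% and 3.25% without. With a repeat, CpG-poor and other peaks were thus close in replicate 2 (9.88% against 8.28%). They lay further apart in replicate 3 (36.7% against 9.75%). In replicate 1, 41.6% of all other peaks had at least 5. Without replicate 3 the number of CpG-poor regions with at least 5 fell from 35 to 20, of which 17 had a repeat. Without replicate 1 they were 27 and 25, and without replicate 2 they were 32 and 31.

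**Figure D2:**
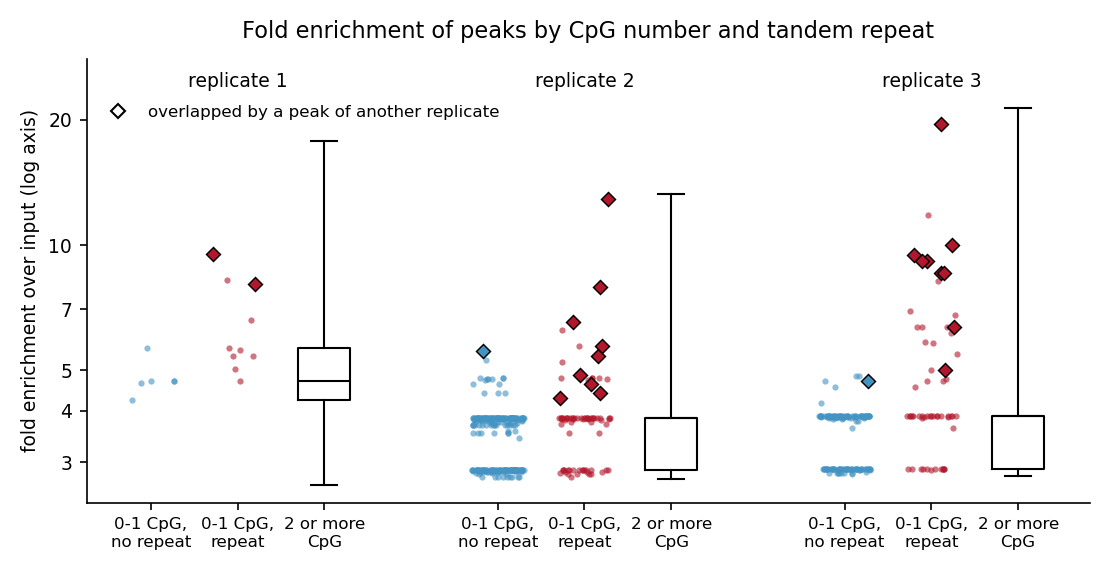
Fold enrichment over input (log axis) of every peak in a CpG-poor region, by replicate, without (blue) and with (red) a tandem repeat; diamonds are overlapped by a peak of another replicate. Boxes give the median and quartiles of the peaks in other regions and whiskers their range; in replicates 2 and 3 the median lies at the upper edge of the box. In replicates 2 and 3 most points lie on 2 steps, at about 2 and 3 reads, and the points above 7 are all from regions with a repeat.

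The summit lay within the repeat more often in strong peaks, whose repeats were also longer. With the best-scoring repeat of each region, 33 of 39 CpG-poor peaks with a repeat and a fold enrichment of at least 5 had the summit in it (84.6%), in 7 of 9, 7 of 8 and 19 of 22 peaks by replicate. Of the 112 weaker peaks with a repeat, 32 had (28.6%). The repeat had a median length of 239 bases in the strong peaks and 58.0 in the weaker ones, and filled a median of 68.5% and 18.5% of the region. In the other regions, 53 of 178 strong peaks with a repeat had the summit in it (29.8%), and 199 of 1434 weaker ones (13.9%). Their repeats had median lengths of 89.5 and 43.0 bases and filled a median of 11.3% and 8.88% of the region. Every self-matching stretch of a CpG-poor region was also counted, a measure added after the values were seen. By this measure, 35 of 39 strong CpG-poor peaks (89.7%) and 35 of 112 weaker ones (31.2%) had the summit in a stretch. The stretches filled a median of 93.6% of the region in the strong peaks. By replicate, 77.8%, 87.5% and 95.5% of the strong peaks had the summit in a stretch, and the stretches filled a median of 100%, 82.3% and 72.2% of the region. The share of summits was thus below the filled part in replicate 1 and above it in replicates 2 and 3, a difference that was not tested.

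Regions with different units differed in how far they were enriched, and their runs differed in length too. Units are written here as the alphabetically first rotation on either strand, so that AATGG also stands for ATTCC. Dinucleotide units made up 49.6% of the runs, against 47.0% in CpG-poor genome tiles. Of the 119 regions with a perfect run, 30 had AC, 18 had AT and 11 had AG. AT made up 15.1% of the runs in CpG-poor regions, 1.77% of those in other regions and 5.54% of those in CpG-poor genome tiles. AC made up 25.2%, 41.5% and 29.1%. Runs with units of 1 or 2 bases reached a fold enrichment of at least 5 in 2 of 63 CpG-poor regions (3.17%), both of them with AG, and in 51 of 762 other regions (6.69%). In a grouping chosen after the values were seen, none of the 56 regions with a run of AC, AT, A or AAAC had a fold enrichment of at least 5, the highest value being 4.79, and none was shared between replicates. In other regions, 49 of 695 with these units had at least 5 (7.05%). Since the units were grouped with the values of the CpG-poor regions known, this contrast is partly fixed by the choice. Runs with units of 5 or 6 bases reached at least 5 in 11 of 21 CpG-poor regions (52.4%) and in 27 of 193 other regions (14.0%). For units of 3 or 4 bases the counts were 13 of 35 (37.1%) and 38 of 289 (13.1%). In CpG-poor regions the median run was 33.5 bases for AC, 47.5 for AT, 39.0 for AG, 23.5 for A and 26.0 for AAAC. For AAGG it was 47.5 bases and for AATGG 58.5. Unit and run length were not separated here, and which of them went with the enrichment was not tested.

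The unit AATGG, which is also the unit of human satellites II and III, was chosen after its values were seen. All 4 CpG-poor regions with this unit had a fold enrichment of at least 5, with a median of 8.00, and 3 of the 4 were shared. The 4 other regions with this unit all had at least 5 too, up to 21.3, the highest value of any region. It was not found in the 3790 runs of the CpG-poor genome tiles, which are a sample of the genome. Both regions with ACCTGC had at least 5, up to 8.18. AG reached 11.8 in a region on chromosome 17, though only 2 of its 11 regions had at least 5.

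Few CpG-poor regions were found in more than 1 replicate. Of the 544 regions, 10 (1.84%) held a peak of at least 2 replicates, against 5.97% of all regions, and 2 held a peak of all 3. Replicate 1 alone gave 14 regions, replicate 2 alone 329 and replicate 3 alone 191. Counted over peaks, 12.5%, 2.95% and 4.98% of CpG-poor peaks were overlapped by a peak of another replicate. In the other peaks 35.4%, 9.21% and 14.3% were. The mean difference was -12.8 ± 8.88 percentage points (SD, n = 3; exact two-sided permutation p = 0.25), and width and strength moved with it. Leaving out replicate 1, 2 or 3 brought it to -6.91, -2.78 and -5.18. With CpG counted in 500 bp around the summit it was -0.525, and positive in replicates 2 and 3. Among other peaks of similar width, 30.2%, 1.61% and 2.10% were shared, so that the difference turned in replicates 2 and 3. Among peaks with a fold enrichment of at least 4, CpG-poor peaks were shared in 12.5%, 31.2% and 31.2% of cases, which was -5.76, 23.2 and 18.3 percentage points from the share of other peaks. The mean difference was then 11.9 percentage points, positive in replicates 2 and 3 only. Of the 10 shared regions, 9 had a tandem repeat, which is 6.43% of CpG-poor regions with a repeat and 0.248% of those without. In the other regions, 9.85% of those with a repeat and 5.67% of those without were shared. When peaks were merged again without replicate 2 there were 2 shared CpG-poor regions, and without replicate 3 there were 3, all of them with a repeat. Merging again can change which regions are CpG-poor, so the 3 are not all among the 10.

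**Figure D3:**
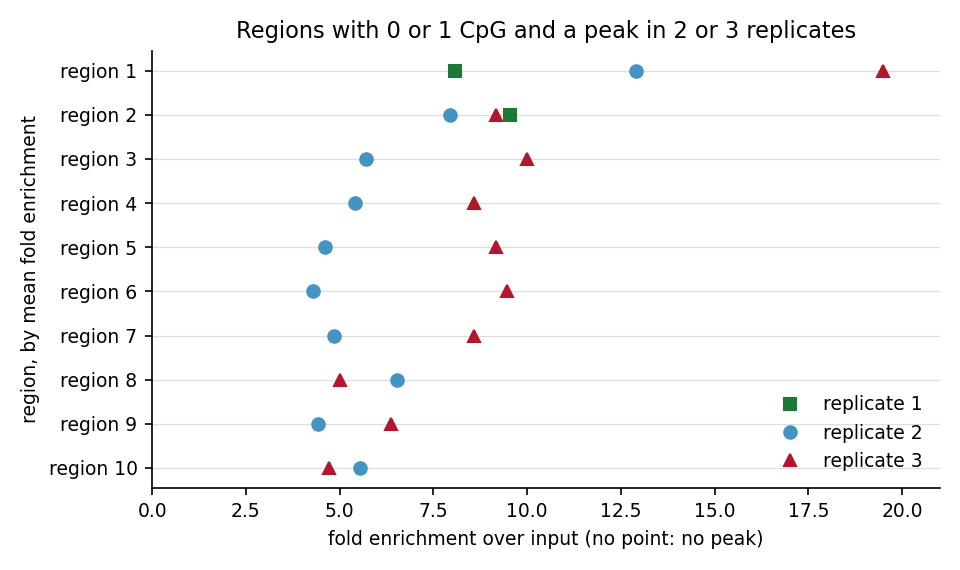
Fold enrichment over input in each replicate with a peak, for the 10 CpG-poor regions with a peak in 2 or 3 replicates, ordered by their mean; the regions are numbered in this order. Replicate 3 was higher than replicate 2 in 8 of the 10, and 2 regions have a value in replicate 1.

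Both regions with a peak in all 3 replicates had a tandem repeat. In the first the fold enrichments were 8.07, 12.9 and 19.5 in replicates 1, 2 and 3, on average 13.5 ± 5.73 (SD, n = 3). The reads at its summit were estimated from them, after rounding, as about 8, 12 and 19. In the second the fold enrichments were 9.54, 7.94 and 9.17, on average 8.88 ± 0.836 (SD, n = 3). The replicates differed little in the second, while replicate 3 was the highest in the first.

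The other shared regions had a peak in replicates 2 and 3 but none in replicate 1. In chr6:10186166-10186701, with the AATGG unit and outside annotated genes, the fold enrichment was 5.71 in replicate 2 and 10.0 in replicate 3. In chr10:83790296-83790661, with the same unit on the other strand, it was 4.28 and 9.47, at a GC content of 29.0%. Replicate 3 was the higher in both. In chr2:9997392-9997731, with the unit ACTC in an intron of Taf3, a subunit of the general transcription factor TFIID, it was 4.62 and 9.17. Further shared regions with a repeat were chr1:44990135-44990674 (4.86 and 8.58), chr9:19486736-19487051 (6.52 and 5.00) and chr6:9179700-9180015 (4.41 and 6.36). The last lies in an intron of Nxph1, which encodes a secreted ligand of neurexins. The only shared region without a repeat had 5.55 and 4.72.

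Of the regions with the longest runs of the 4 most common units, those with AC, AT and AG had a fold enrichment under 5 and that with AAGG had more. The longest AC run, of 54 bases in chr2:143034065-143034368, had a peak in replicate 2 alone with a fold enrichment of 2.82, or about 2 reads. The longest AT run (62 bases, chr12:110101748-110102051) and the longest AG run (62 bases, chr5:89030738-89031041) each had a peak of 3.83 in replicate 2 alone, or about 3 reads. The longest AAGG run (71 bases, chr11:59216747-59217065) lies in an intron of Wnt9a, a secreted Wnt ligand, and had 6.36 in replicate 3 alone. Apart from the shared one, 2 regions without a repeat had at least 5. They lie in introns of Ptpn4, a protein tyrosine phosphatase (5.29, replicate 2), and of Kmt2e, a chromatin protein of the MLL family (5.64, replicate 1).

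In base content, CpG-poor regions lay between the CpG-poor genome and the other regions. The median GC content over peaks was 46.4%, 41.8% and 43.2% in replicates 1, 2 and 3, and 51.5%, 49.3% and 49.4% in other peaks, a mean difference of -6.24 ± 1.22 percentage points (SD, n = 3; exact two-sided permutation p = 0.25). A part of this difference is fixed by the rule, which leaves out sequences with at least 2 CpG. CpG-poor genome tiles had a median of 38.5% and the CpG-poor regions 42.4%, with a range of 21.4% to 74.0%. A median of more than 1 exact genome copy of their 30-base words was found in 51 CpG-poor regions (9.38%), against 13.9% of CpG-poor tiles and 2.63% of other regions. It was found in 38 of the 140 regions with a tandem repeat and in 13 of the 404 without.

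CpG-poor regions lay outside annotated genes more often than other regions, but less often than the CpG-poor genome. The share of peaks with most of the region outside genes was 25.0%, 22.4% and 21.9%, against 10.3%, 10.4% and 10.1% of other peaks. The mean difference was 12.8 ± 1.62 percentage points (SD, n = 3; exact two-sided permutation p = 0.25), positive in 3 of 3 replicates. Of CpG-poor tiles, 47.1% lay outside genes. Of the 544 regions, 357 (65.6%) lay in protein-coding genes and 47 (8.64%) touched an exon, against 79.6% and 29.8% of the other regions. Regions with a tandem repeat lay in protein-coding genes in 50.7% of cases and those without in 70.8%.

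Around CpG-poor peaks, the flanks held more CpG on average than those of CpG-poor genome tiles, but fewer than those of other peaks. The flanks of 500 bp on each side of the region held a mean of 7.00, 9.84 and 10.5 CpG in replicates 1, 2 and 3, against 19.1, 15.3 and 16.1 for other peaks, a mean difference of -7.71 ± 3.76 (SD, n = 3; exact two-sided permutation p = 0.25). The same flanks of CpG-poor tiles held 5.92 on average, and those of all tiles 8.52. The flanks held 10.6 CpG on average in regions without a tandem repeat and 8.64 in regions with one, a difference that was not tested. Distances from the summit also count the CpG of the region, and 63 of the 160 regions without CpG had a repeat, against 77 of the 384 with 1. From the summit to the nearest CpG, the median distance was 103, 93.5 and 87.0 bp by replicate without a repeat, and 198, 134 and 173 bp with one. From the centre of CpG-poor tiles it was 135 bp. A stretch of 362 bp around the summit, the mean fragment length, held no CpG in 58 of 405 peaks without a repeat (14.3%) and in 61 of 151 with one (40.4%). In CpG-poor tiles this share was 33.8%. No CpG within 500 bp of the summit was found for 2 peaks without a repeat and 10 with one.

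**Figure D4:**
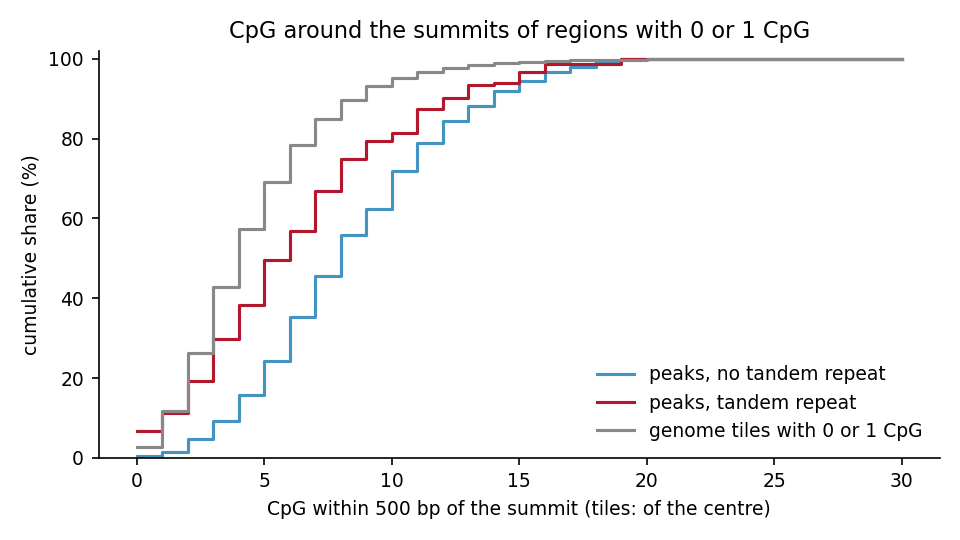
Cumulative share (%) of CpG-poor peaks without (blue) and with (red) a tandem repeat by the number of CpG within 500 bp of the summit, and of CpG-poor genome tiles by the number around their centre (grey). The medians are 8, 6 and 4 CpG.

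Base-calls could be examined at the single CpG of these regions, though with little depth. The counts list cytosines of the forward strand, and calls at the reverse-strand cytosine of a CpG were not analysed here. Of the 384 regions with 1 CpG, 291 had a base-call in at least 1 replicate and 278 had one inside a peak of the same replicate, while 93 had none. Of the other regions, 535 (4.20%) had none, but each of them has at least 2 CpG at which a call could be made, so that the shares are not alike. According to the methods, masked repeats were left out of the counts, and the part of this in the missing calls was not tested. Another 4 regions counted as having no CpG had a call at a CpG that straddles their edge. Inside its own peaks, replicate 1 gave 8 calls at 5 sites, replicate 2 gave 249 calls at 189 sites and replicate 3 gave 111 calls at 90 sites, with at most 3 calls at a site. In replicate 2, 32.1% of the calls were 5hmC (exact Clopper-Pearson 95% interval 26.4% to 38.3%), and in replicate 3 it was 23.4% (15.9% to 32.4%). In replicate 1, 4 of 8 calls were 5hmC (50.0%, 15.7% to 84.3%). Calls of 5mC made up 43.8% in replicate 2 and 44.1% in replicate 3.

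At the CpG of other regions, 28.7% of calls were 5hmC in replicate 2 and 27.5% in replicate 3, both within the intervals of the CpG-poor regions. A difference between the CpG-poor and the other regions was therefore not detectable in these replicates at this depth. With regions of 0 to 2 CpG it was 7.29 percentage points in replicate 2 and 10.8 in replicate 3, and positive in 3 of 3 replicates. In replicate 1 the share in other regions was 7.16%, with up to 1591 calls at a single site, and the mean over single sites was 27.4%. The mean difference over replicates was 14.1 ± 25.2 percentage points (SD, n = 3; exact two-sided permutation p = 0.75), and it was -0.305 without replicate 1. With the mean over single sites it was 2.11 percentage points, from differences of 12.6, 0.474 and -6.76 in replicates 1, 2 and 3. At least 1 call of 5hmC was found in 101 of the 281 CpG-poor regions with calls in their own peaks (35.9%). Counted by site, it was found at 3 of 5, 73 of 189 and 25 of 90 sites in replicates 1, 2 and 3. In the other regions it was found at 1950 of 4680, 21905 of 54576 and 12907 of 31526 sites. In replicate 2, 33.5% of 203 calls were 5hmC in regions without a tandem repeat (27.0% to 40.4%), against 26.1% of 46 calls in regions with one (14.3% to 41.1%). The same comparison in replicate 3 gave 26.1% of 88 calls (17.3% to 36.6%) and 3 of 23 calls (2.78% to 33.6%), while replicate 1 had no site in a region with a repeat. These intervals overlapped, and they cover counting error only. Base-calls outside the CpG context were not analysed here, so that 5hmC at other cytosines of these regions was not tested.

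**Figure D5:**
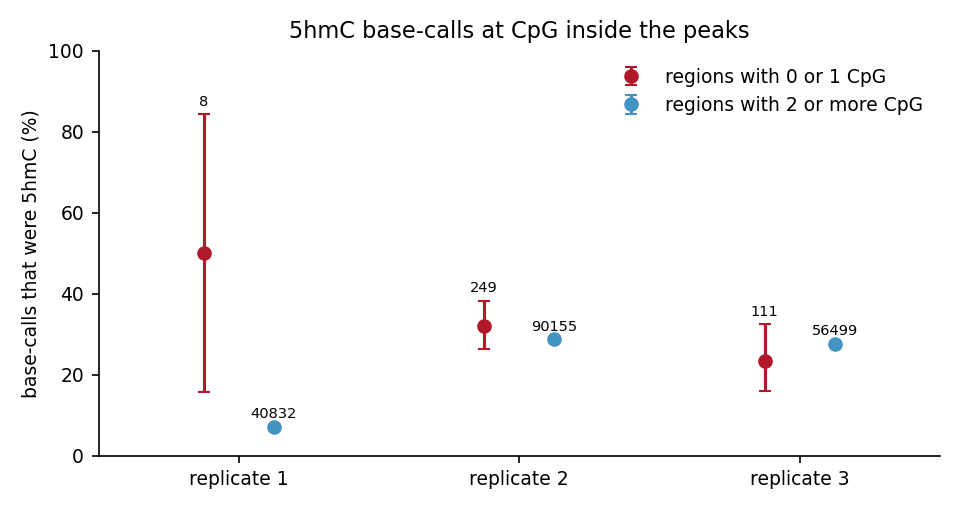
Share of base-calls that were 5hmC (%) at CpG inside the peaks of each replicate, for CpG-poor regions (red) and other regions (blue), with exact Clopper-Pearson 95% intervals; the numbers above the points are calls. In replicates 2 and 3 the CpG-poor regions gave 32.1% and 23.4% and the other regions 28.7% and 27.5%.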

How the data were processed

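The authors base-called the MinION reads with Dorado and aligned them to mm39 with minimap2. They called narrow peaks with MACS2 for each replicate by itself, with untreated DNA as input. According to the methods, peaks that overlapped the ENCODE blacklist were then removed. In the deposited lists, the fold enrichment is a ratio of reads at the summit to local background. The −log10 p-value, the −log10 q-value and a display score are deposited beside it, and of these only the q-value was used. The counts of 5hmC, 5mC and C base-calls per CpG site were made by the authors with modkit, with masked repeats left out according to the methods, and the deposited percent values were not used. Every site lay on a CG of the GRCm39 sequence used here.

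The regions, lists and tests were chosen with earlier results of these data known. Replicates came from the sample labels. Reads at a summit were estimated as the fold enrichment times the background plus 1, less 1, with the background (0.0589, 0.0446 and 0.0331 reads) set so that the most common value of a list was a whole read. With this 1 background per list, the estimate was within 0.05 of a whole read in 43.8%, 77.3% and 79.1% of CpG-poor peaks. In those with a repeat it was so in 30.0%, 72.8% and 60.0%, and the reads are therefore approximate. Genome shares came from non-overlapping tiles of the width of each region, rounded to 10 bp. Every 100th tile of 304 bp was described in full. Self-matches scored 1 for a match and -3 for a mismatch, with a minimum score of 30. Genes were those of GENCODE M39. The regions named were the 6 shared regions with the highest mean fold enrichment, the highest of each replicate, and the longest run of each of the 4 most common units; others are said to have been chosen later. The sequences and positions of some of these are not reported here. The median or share of each replicate was compared within the replicate, and 3 differences were tested by flipping signs. Functions were tested on simulated data. Python 3.11.15, numpy 2.4.6, scipy 1.17.1 and pysam 0.24.0 were used.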

Additional observations from a re-analysis of the deposited data

How the results depend on the processing

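Of 79 recomputed values for 9 results, 67 kept their direction (for the number of regions, stayed within 1.5 times). The number of CpG-poor regions was 160 with 0 CpG only, 1231 with 0 to 2 CpG, 161 with CpG counted in 500 bp around the summit, 68 with a fold enrichment of at least 4 and 330 with a q-value under 0.01. Leaving out 1 replicate gave 227 to 530 regions. The difference in fold enrichment reversed to -0.0222 with 0 to 2 CpG and to -0.0672 against other peaks of similar width, and ranged from -0.0421 to 0.343 when 1 replicate was left out. The difference in sharing reversed to 11.9 percentage points at a fold enrichment of at least 4. The difference in the share of 5hmC calls ranged from -0.305 to 23.4 percentage points when 1 replicate was left out. The causes were not tested. Differences in genome share, tandem repeats, GC content, flanking CpG and position outside genes kept the sign of their mean in all alternatives run, although a perfect run of 12 bases brought that in tandem repeats to 4.55 percentage points and turned it in replicate 1 (-3.93).

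Since 3 replicates allow no p under 0.25, stability here concerns direction only. The planned comparison of masked bases was not made, because the reference used here has no repeat masking, and genome copies of 30-base words were counted in its place, a measure chosen after seeing the data, as were the self-matches (difference of 23.7 percentage points), the split by repeat and the distances from the summit. Depth limits most values to 2 or 3 reads at a summit and 1 call at a CpG.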
